A study of Mus musculus with 6 samples.

Results

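The BAF complex subunit switch was followed through 10 genes: Actl6a, Actl6b, Smarcd1, Smarcd3, Dpf1, Dpf2, Dpf3, Phf10, Ss18 and Ss18l1. They were taken by name from 49671 genes, together with their 63 annotated transcripts out of 123063, and all 10 passed the filter on low counts. BAF (SWI/SNF) complexes use ATP to move nucleosomes, and vertebrate cells build them from families of paralogous subunits, so that one family member at a time fills a given position. When neural progenitors leave the cell cycle and become neurons, the BAF53 position passes from ACTL6A (BAF53a) to ACTL6B (BAF53b), the BAF45 position from PHF10 (BAF45a) and DPF2 (BAF45d) to DPF1 (BAF45b) and DPF3 (BAF45c), and the SS18 position from SS18 to SS18L1 (CREST). At the BAF60 position SMARCD1 (BAF60a) and SMARCD3 (BAF60c) are alternative members. In the mouse, the microRNAs miR-9-3p (miR-9*) and miR-124 repress Actl6a through its 3′ UTR, and the repressor REST holds those microRNAs down in non-neuronal cells.

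The RNA came from primary cultures of C57BL/6 mouse neocortex taken at embryonic day 14 and plated in dishes of 35 mm. Total RNA was sequenced from wild-type cultures after 3 days in vitro (WT DIV3), from cultures labelled Ptbp2-/- after 1 day in vitro (KO DIV1), and from wild-type cultures after 1 day in vitro (WT DIV1), with 2 libraries in each group. The study asks how gene expression and splicing change around the time that an axon forms, and what loss of the splicing regulator PTBP2 does to them. The labels call the 2 libraries of a group biological replicates without naming their source, so the p-values measure the spread between these libraries. The labels do not describe the Ptbp2 allele.

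Ptbp2 itself had 474 and 514 CPM (counts scaled to a common library size) in the libraries labelled knockout, against 465 and 429 CPM in WT DIV1. Its log2 fold change was 0.14 ± 0.09 (SE; adjusted p = 0.413, edgeR quasi-likelihood test), so the gene-level count did not separate the labelled genotypes; such a count cannot check an allele that leaves the transcript in place. Totals per library ran from 39104879 to 75522198 expected counts. The 2 KO libraries stood apart from each other: their log2 difference had an SD of 0.406 over genes and a Spearman correlation of -0.614 with transcript length, where the WT DIV3 pair had 0.277 and 0.419 and the WT DIV1 pair 0.259 and 0.345. The neuronal markers Tubb3, Map2, Dcx, Rbfox3, Syt1 and Snap25 summed to 7516 and 7423 CPM in WT DIV3, 4090 and 4369 CPM in KO DIV1, and 4668 and 4537 CPM in WT DIV1, so all 6 libraries carried the labelled cell type. Markers of dividing, glial and pericyte cells were also present.

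Sequences of Dpf2, Smarcd3 and Actl6a bear on the comparisons of transcripts and of the miR-9 circuit. The first pair shows the exon by which the coding sequences of the main Dpf2 transcripts differ, exon 7 of Dpf2-202, a cassette of 42 bases (14 codons) at chr19:5903731-5903772 on the minus strand of GRCm38; capitals mark the exon, with 20 bases of its neighbours in lower case.
Dpf2-202: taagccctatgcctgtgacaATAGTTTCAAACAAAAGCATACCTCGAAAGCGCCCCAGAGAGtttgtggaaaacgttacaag
Dpf2-205: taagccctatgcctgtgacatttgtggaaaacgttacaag
The next is the coding part of the first exon of Smarcd3-201, 78 bases at chr5:24601781-24601858 on the minus strand. Smarcd3-208 begins instead at an upstream first exon, and its annotated coding sequence is 87 bases shorter. Capitals mark the start codon of Smarcd3-201.
Smarcd3-201: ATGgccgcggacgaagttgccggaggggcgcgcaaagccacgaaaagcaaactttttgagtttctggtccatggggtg
The last set shows how miR-9-3p can pair with Actl6a. The mature microRNAs of the miR-9 hairpin, from RefSeq on GRCm38.p6, are printed with the seed (bases 2 to 8) in capitals, and the stretch of the Actl6a-201 3′ UTR at chr3:32726630-32726656 on the plus strand has the 7 bases complementary to the miR-9-3p seed in capitals.
mmu-miR-9-3p: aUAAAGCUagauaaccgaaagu
mmu-miR-9-5p: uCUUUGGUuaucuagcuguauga
Actl6a-201: caacgtctgtAGCTTTAgtacactcag
The 371-base 3′ UTR of Actl6a-201 held 1 match to AGCTTTA, searched on the transcribed strand, which 2.86% of 14201 annotated 3′ UTR windows of the same length held. It held 0 matches to ACCAAAG, the complement of the miR-9-5p seed, which 3.5% of the windows held. A match is a match of letters and not a measured site.

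Paralogs of one position are similar, which bears on how reads are assigned to them. The coding sequences of Actl6b-205 and Actl6a-201 were 76.3% identical over the aligned bases and shared no identical run longer than 23 bases. Smarcd3-201 and Smarcd1-201 were 73.9% identical, Dpf1-201 and Dpf2-205 73.5%, and Ss18l1-201 and Ss18-203 72.9%, with longest identical runs of 21, 21 and 22 bases. The genes lie apart in GRCm38: Actl6a at chr3:32706298-32726973 and Actl6b at chr5:137553517-137569582 on the plus strand, Smarcd1 at chr15:99702129-99713991 on the plus strand, and Smarcd3 at chr5:24590818-24624411 on the minus strand. Dpf1 lies at chr7:29303951-29318243 on the plus strand, and Dpf2 at chr19:5896516-5913010, Dpf3 at chr12:83213745-83487716 and Phf10 at chr17:14945009-14961273 on the minus strand. Ss18 lies at chr18:14624198-14682914 on the minus strand and Ss18l1 at chr2:180042509-180070201 on the plus strand.

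In wild-type cultures between 1 and 3 days in vitro, the neuronal members Actl6b and Ss18l1 rose and the progenitor or shared members Actl6a, Dpf2 and Ss18 fell. Actl6a fell by 47.1% in WT DIV3 against WT DIV1. In all, 2 members were called higher and 3 lower at an adjusted p under 0.05, where 36.1% of all 16847 tested genes were called, 19.8% higher and 16.4% lower. At an unadjusted p under 0.05 the members counted 8 of 10, against 46.2% of all genes. The median log2 fold change of the 10 was -0.29, against -0.02 over all genes tested. The WT DIV3 and WT DIV1 libraries did not overlap for 9 members, as for 76.2% of all genes. Markers of other cell types moved with the members. Those of dividing cells (Mki67, Top2a, Cdk1 and Ccnb1) summed to 549 and 545 CPM in WT DIV3, 1198 and 1191 CPM in KO DIV1, and 1177 and 1121 CPM in WT DIV1, and all 4 were called lower in WT DIV3. Of 8 markers of radial glia and intermediate progenitors, 6 were called lower and 1 higher, and their sum was 1791 and 1843 CPM in WT DIV3, 2445 and 2193 CPM in KO DIV1, and 2187 and 2131 CPM in WT DIV1. Of the 6 neuronal markers, 5 were called higher. The part of these cells in the subunit changes was not tested, and in bulk RNA fewer cells of a type and less RNA per cell cannot be told apart.

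At the BAF53 position, Actl6a had 49.3 and 47.7 CPM in WT DIV3, against 91.6 and 91.7 CPM in WT DIV1. The DIV3 libraries lay far below the DIV1 libraries, and the members of each pair were close. The log2 fold change was -0.92 ± 0.07 (SE), with an adjusted p of 0.000211 by the edgeR quasi-likelihood test with Benjamini-Hochberg adjustment, which is the test behind every adjusted p of a gene. Actl6b, the neuronal paralog, had 122 and 130 CPM in WT DIV3, against 92.7 and 101 CPM in WT DIV1. Both DIV3 libraries were above both DIV1 libraries, and the log2 fold change was 0.38 ± 0.09 (SE; adjusted p = 0.0199, edgeR quasi-likelihood test). This call was lost when any 1 of the 4 wild-type libraries was left out (log2 fold change between 0.32 and 0.44). It was also lost with library totals in place of TMM scaling (adjusted p = 0.0577, edgeR) and with the replicate number as a block (0.0594, edgeR). In all it held in 6 of 12 alternatives, and the direction in all 12.

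At the SS18 position, Ss18l1 encodes CREST, a calcium-responsive coactivator needed for dendrite growth in mouse cortex. It had 180 and 167 CPM in WT DIV3, against 121 and 114 CPM in WT DIV1. Ss18, its paralog, had 62.6 and 61.5 CPM in WT DIV3, against 93.4 CPM in both WT DIV1 libraries. Neither pair of groups overlapped. Ss18l1 rose by 0.56 ± 0.08 on the log2 scale (SE, adjusted p = 0.00203, edgeR quasi-likelihood test) and Ss18 fell by 0.59 ± 0.07 (adjusted p = 0.000926). Genes of long transcripts tended to be higher in WT DIV3 than in WT DIV1. The median log2 fold change was -0.16 in the fifth of genes with the shortest transcripts and 0.15 in the fifth with the longest. With the trend with transcript length removed, the log2 fold changes were 0.41 for Ss18l1 and -0.63 for Ss18. They were then 0.50 for Actl6b and -0.85 for Actl6a.

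**Figure D1:**
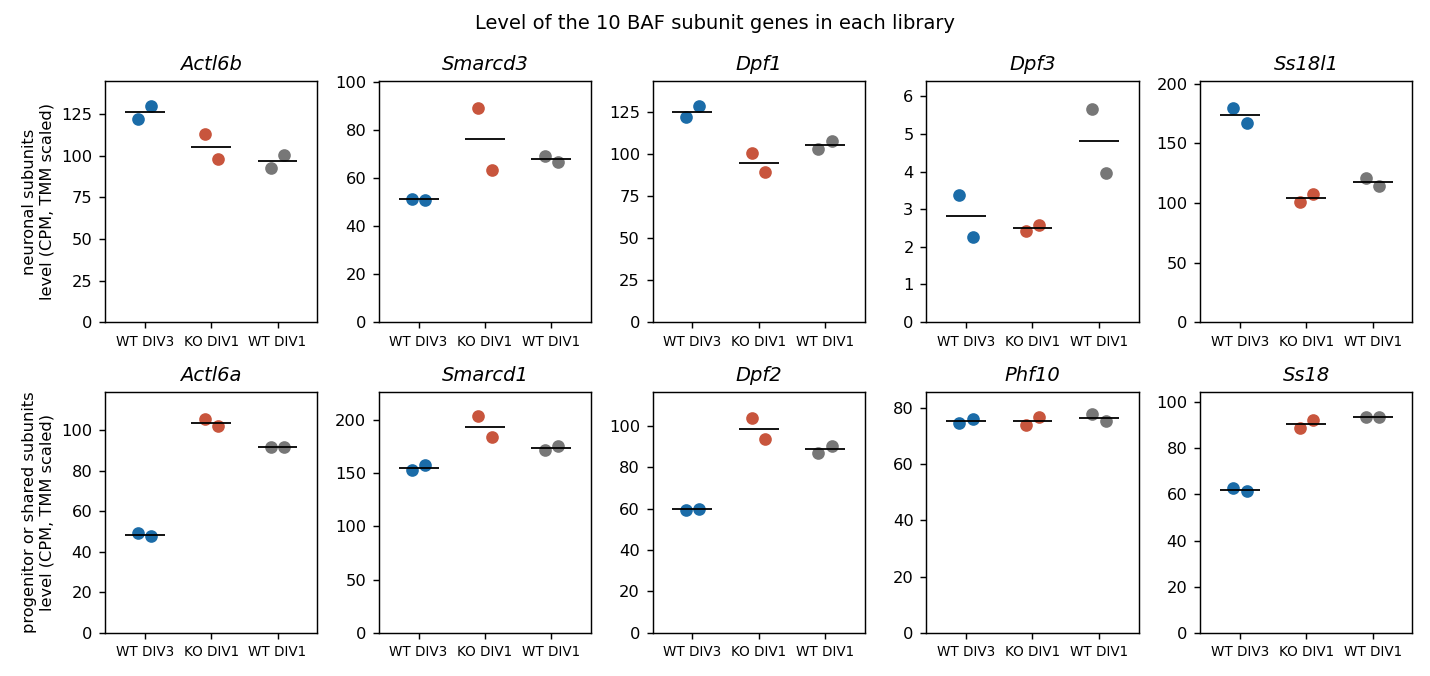
Level of each member in CPM (counts scaled to a common library size with TMM; y axes start at 0) in WT DIV3, KO DIV1 and WT DIV1; points are libraries and lines are means of 2. Actl6a, Dpf2, Ss18, Smarcd1 and Smarcd3 are lower in both WT DIV3 libraries than in any DIV1 library, and Actl6b, Dpf1 and Ss18l1 are higher.

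At the BAF45 position, whose members carry paired PHD fingers that read histone tails (Phf10 included), the call fell on Dpf2. Dpf2 had 59.6 and 59.8 CPM in WT DIV3, against 87.0 and 90.5 CPM in WT DIV1, and its log2 fold change was -0.57 ± 0.08 (SE; adjusted p = 0.00187, edgeR quasi-likelihood test). Dpf1, the neuronal paralog, had 122 and 129 CPM in WT DIV3, against 103 and 108 CPM in WT DIV1. These groups did not overlap, and the log2 fold change of 0.24 ± 0.08 (SE; 95% interval 0.05 to 0.44) had an adjusted p of 0.0592 (edgeR). Phf10 had 74.8 and 76.1 CPM in WT DIV3, against 77.7 and 75.3 CPM in WT DIV1, and was the member whose groups overlapped; the 95% interval of its log2 fold change was -0.18 to 0.14. Dpf3, counted among the neuronal members, was the scarcest of the 10, with 3.38 and 2.26 CPM in WT DIV3, against 5.66 and 3.97 CPM in WT DIV1. That is 84 to 273 counts per wild-type library. Its log2 fold change was -0.75 ± 0.25 (SE; adjusted p = 0.0521, edgeR), in the opposite direction to that of Dpf1.

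At the BAF60 position neither member passed. Smarcd3 had 51.3 and 51.0 CPM in WT DIV3, against 69.1 and 66.9 CPM in WT DIV1, with a log2 fold change of -0.41 ± 0.15 (SE; adjusted p = 0.0717, edgeR). Smarcd1 had 153 and 158 CPM in WT DIV3, against 172 and 176 CPM in WT DIV1, with a log2 fold change of -0.16 ± 0.08 (SE; adjusted p = 0.143, edgeR). For both genes the WT DIV3 libraries lay below the WT DIV1 libraries. The fit shares its estimate of spread with the KO libraries, and with only the 4 wild-type libraries 9 members were called, Phf10 being the exception, where 8566 genes (52.4%) were called. The count was also 9 without the first or the second KO library, where 8698 (50.6%) and 8676 genes (50.1%) were called. With the trend with transcript length removed, 8 members and 7529 genes (44.7%) were called.

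**Figure D2:**
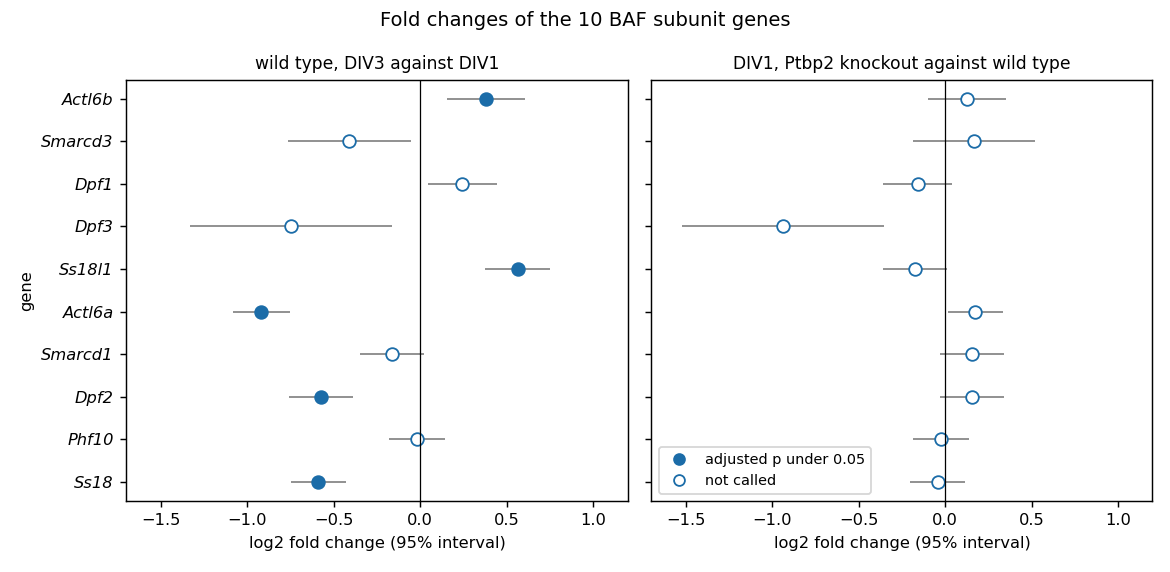
Log2 fold change of each member with its 95% interval for WT DIV3 against WT DIV1 (left) and KO DIV1 against WT DIV1 (right); filled points have an adjusted p under 0.05 and open points do not. The left panel has 5 filled points and the right panel 0.

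To compare levels between paralogs, transcript counts were divided by transcript length and scaled to a common total per library (TPM), and each paralog was expressed as a share of the summed TPM of its position. Actl6b held 82.4% and 83.9% of the BAF53 position in WT DIV3, 65.0% and 64.6% in KO DIV1, and 66.1% and 67.9% in WT DIV1. Ss18l1 held 66.4% and 65.3% of the SS18 position in WT DIV3, 44.1% and 45.0% in KO DIV1, and 47.1% and 45.7% in WT DIV1. Thus Ss18l1 exceeded Ss18 per length in WT DIV3, while Ss18 exceeded Ss18l1 in all 4 DIV1 libraries. At the BAF45 position Dpf1 held 51.9% ± 1.0 in WT DIV3, 37.4% ± 1.1 in KO DIV1 and 40.0% ± 0.42 in WT DIV1 (SD, n = 2 each). Dpf2 held 25.4% ± 1.3, 38.9% ± 0.56 and 36.6% ± 0.54 in the same groups, Phf10 21.8% ± 0.48, 22.8% ± 0.50 and 21.8% ± 0.65, and Dpf3 at most 1.8% in any library. These shares count all annotated transcripts of a gene, not coding ones alone. With the union of all annotated exons as 1 length per gene, Dpf2 held 19.1% and 18.7% in WT DIV3 and Phf10 31.8% and 31.6%. In WT DIV1 Dpf2 then held 26.9% and 27.7% and Phf10 31.8% and 30.5%, so Phf10 exceeded Dpf2 on that measure. At the BAF60 position Smarcd3 held 38.1% ± 0.59 in WT DIV3, 40.2% ± 3.3 in KO DIV1 and 41.2% ± 1.9 in WT DIV1, and Smarcd2, a further paralog, 7.0% to 8.1% on average. With the union of exons Smarcd3 held 19.4% and 18.7% in WT DIV3 and 22.0% and 20.9% in WT DIV1. The log2 ratio of Smarcd3 over Smarcd1 was -0.50 and -0.56 in WT DIV3 against -0.24 and -0.37 in WT DIV1, the smallest difference among the 5 pairs examined.

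**Figure D3:**
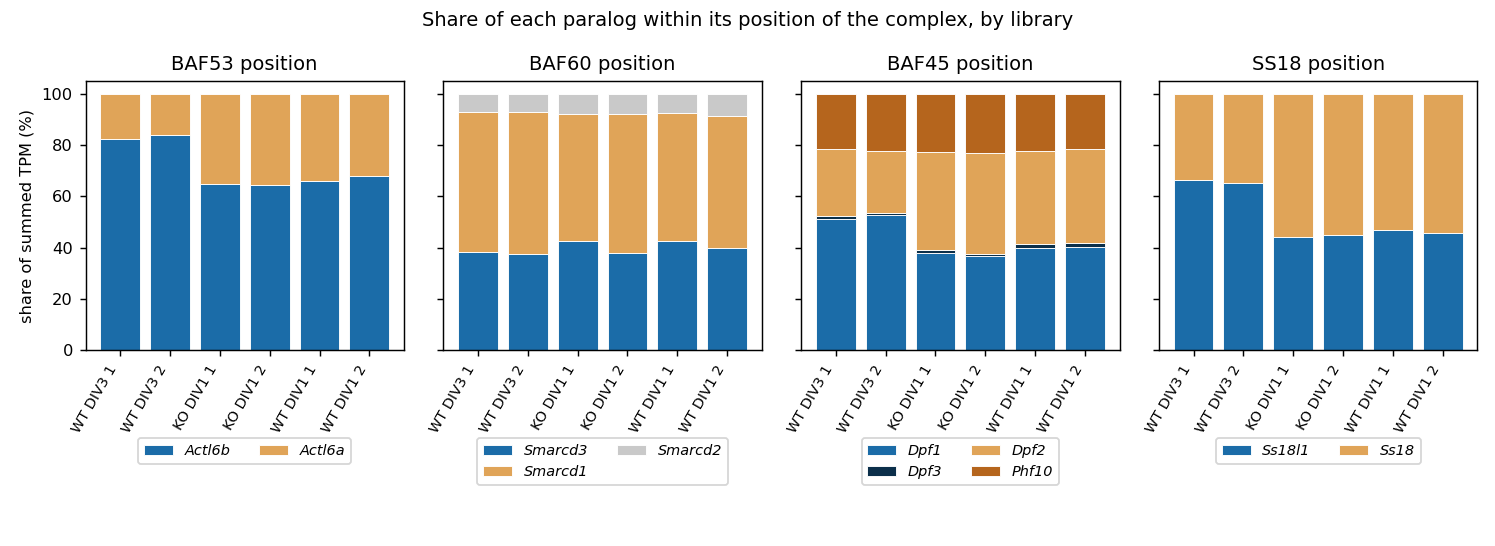
Share of the summed TPM of each BAF position held by each paralog (y axis, percent; each bar is 1 library and adds up to 100%), with WT DIV3, KO DIV1 and WT DIV1 from left to right. Actl6b, Dpf1 and Ss18l1 take larger shares in both WT DIV3 libraries than in any of the 4 DIV1 libraries.

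As a log2 ratio of TPM, Actl6b over Actl6a was 2.23 and 2.38 in WT DIV3, against 0.96 and 1.08 in WT DIV1, a difference of 1.29. Ss18l1 over Ss18 was 0.98 and 0.91 in WT DIV3, against -0.17 and -0.25 in WT DIV1, a difference of 1.15. Dpf1 over Dpf2 was 0.96 and 1.11 in WT DIV3, against 0.14 and 0.13 in WT DIV1, a difference of 0.90. Dpf3 over Phf10 ran the other way, at -4.35 and -4.93 in WT DIV3, against -3.63 and -3.97 in WT DIV1. The groups did not overlap for any of the 5 pairs, but 2 libraries against 2 cannot give an exact permutation p below 0.333, so no p is given. The absolute share at the BAF53 position depends on how length is counted, because Actl6b-203, a transcript of 508 bases, took 15.2% to 24.8% of the Actl6b counts. With the union of all annotated exons as 1 length per gene (4267 bases for Actl6b, 3886 for Actl6a), Actl6b held 69.3% and 71.3% of the position in WT DIV3 and 48.0% and 50.0% in WT DIV1; between the main transcripts Actl6b-205 and Actl6a-201 alone, the log2 ratio was 1.13 and 1.25 in WT DIV3, against -0.21 and -0.08 in WT DIV1. With the union of exons Ss18l1 held 86.2% and 85.5% of the SS18 position in WT DIV3, 71.0% and 71.7% in KO DIV1, and 73.7% and 72.6% in WT DIV1, so that it exceeded Ss18 in all 6 libraries. That union is 9419 bases for Ss18, whose counted transcripts averaged 3034 bases, and 4343 bases for Ss18l1 on both measures. With the count-weighted mean transcript length of each gene, the log2 ratio of Ss18l1 over Ss18 was 1.01 and 0.92 in WT DIV3, -0.34 and -0.29 in KO DIV1, and -0.15 and -0.23 in WT DIV1, the same order as with TPM.

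Ordered by TPM, the WT DIV3 cultures had Actl6b (275 ± 6.2), Dpf1 (165 ± 2.7), Smarcd1 (99.0 ± 0.11), Ss18l1 (84.4 ± 6.5), Dpf2 (80.6 ± 4.3), Phf10 (69.2 ± 1.3), Smarcd3 (68.7 ± 1.9), Actl6a (55.6 ± 2.9), Ss18 (43.8 ± 1.9) and Dpf3 (2.83 ± 0.75; SD, n = 2 each). The libraries of Ss18l1 and Dpf2 overlapped, as did those of Phf10 and Smarcd3, and other neighbours did not. In WT DIV1 the order was Actl6b (215 ± 9.9), Dpf1 (136 ± 1.8), Dpf2 (125 ± 2.2), Smarcd1 (114 ± 1.2), Actl6a (106 ± 1.4), Smarcd3 (92.8 ± 5.0), Phf10 (74.3 ± 2.0), Ss18 (67.9 ± 0.38), Ss18l1 (58.8 ± 2.6) and Dpf3 (5.38 ± 1.0), with no overlap between neighbours. By TPM, Ss18l1 thus had rank 4 in WT DIV3 and rank 9 in WT DIV1. Its place below Ss18 in WT DIV1 did not hold with the union of exons. In KO DIV1 the order began with Actl6b (198 ± 12), Smarcd1 (117 ± 0.85), Dpf2 (116 ± 5.7), Dpf1 (111 ± 0.60) and Actl6a (108 ± 7.6), of which Smarcd1 overlapped Dpf2 and Dpf1 overlapped Actl6a. Such orders depend on how length is counted. In KO DIV1 the log2 ratio of Dpf1 over Dpf2 was -0.01 and -0.10 with TPM, but 0.23 and 0.20 with the union of exons. With the count-weighted mean transcript length that ratio was 0.04 and 0.02.

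At 1 day in vitro, no member was called between the libraries labelled Ptbp2 knockout and wild type. The edgeR quasi-likelihood test called 0 of 16847 genes at an adjusted p under 0.05 (0%), 2475 genes had an unadjusted p under 0.05 (14.7%), and DESeq2 called 198 genes and 0 members. Of the members, Actl6a and Dpf3 had an unadjusted p under 0.05, and the smallest adjusted p was 0.333 (edgeR). The 2 groups did not overlap for 7 members, as for 53.1% of all genes. This comparison and that of WT DIV3 use the same WT DIV1 libraries. Without the second KO library, 5549 genes (32.1%) and 7 members were called, and without the first, 43 genes (0.25%) and 0 members, so single libraries decide this count.

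Actl6a had 105 and 102 CPM in KO DIV1, against 91.6 and 91.7 CPM in WT DIV1. Its log2 fold change was 0.18 (95% interval 0.02 to 0.34), with an adjusted p of 0.333 (edgeR). Actl6b had 113 and 97.8 CPM in KO DIV1, against 92.7 and 101 CPM in WT DIV1, which overlapped, with a log2 fold change of 0.13 (95% interval -0.10 to 0.35). With the trend with transcript length removed the estimate was 0.09 for Actl6a and -0.04 for Actl6b. Dpf3 had 2.43 and 2.58 CPM in KO DIV1, against 5.66 and 3.97 CPM in WT DIV1. Its log2 fold change of -0.94 ± 0.25 (SE; adjusted p = 0.333, edgeR) was the largest of the 10, on 130 and 190 counts in KO DIV1 against 273 and 202 in WT DIV1. Smarcd3 differed most between the KO libraries, with 89.4 and 63.5 CPM, one above and one below the 69.1 and 66.9 CPM of WT DIV1. For the other members the log2 fold changes lay between -0.17 for Ss18l1 and 0.15 for Smarcd1 and Dpf2, and their 95% intervals reached no further than -0.36 and 0.34. Genes of short transcripts tended to be higher in the KO libraries: the median log2 fold change was 0.22 in the fifth of genes with the shortest transcripts and -0.19 in the fifth with the longest.

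Transcript usage was examined next. Of 7638 genes with more than 1 transcript that passed the filters, 35 (0.458%) were called between WT DIV3 and WT DIV1 and 44 (0.576%) between KO DIV1 and WT DIV1 by edgeR's diffSpliceDGE with Simes' adjustment, requiring an adjusted p under 0.05 and a change of at least 10 points in a transcript's share of its gene. Of the 7 members tested, 0 were called in either comparison, and 0 had an unadjusted Simes p under 0.05, against 3.94% and 4.67% of all genes. The F form of the test and limma's diffSplice also called 0 members. Actl6a, Smarcd1 and Ss18l1 were not tested, because 1 transcript each (Actl6a-201, Smarcd1-201 and Ss18l1-201) held at least 91.2% of their counts in every library. Expected counts split between transcripts carry an uncertainty that the deposited tables do not hold.

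Dpf2 had the largest share change of the members in the KO comparison. Dpf2-202, which includes exon 7, held 62.6% and 48.5% of the Dpf2 counts in KO DIV1, against 37.8% and 36.9% in WT DIV1. Dpf2-205, which skips it and has a last exon 871 bases longer, held 15.0% and 25.3% in KO DIV1, against 32.0% and 28.4% in WT DIV1. Among counts of the transcripts that either include exon 7 or join exon 6 to exon 8, the including share was 54.8% and 56.7% in WT DIV3, 74.0% and 61.2% in KO DIV1, and 49.8% and 48.8% in WT DIV1. Both KO libraries and both WT DIV3 libraries lay above the WT DIV1 libraries, and the KO libraries were apart from each other. Between Dpf2-202 and Dpf2-205 alone, the share of Dpf2-202 was 56.1% and 58.6% in WT DIV3, 80.7% and 65.7% in KO DIV1, and 54.1% and 56.5% in WT DIV1. On that measure the WT DIV3 libraries overlapped the WT DIV1 libraries, and the KO libraries stayed above them. All these shares come from expected counts of whole transcripts, not from reads over the exon or its junctions. Dpf2-202 has 2406 bases and Dpf2-205 has 3314, and genes of short transcripts tended to be higher in the KO libraries. The part of transcript length in these shares was not tested. The adjusted Simes p was 1 in both comparisons (edgeR diffSpliceDGE); the F form gave an adjusted p of 0.145 for KO DIV1 and 0.026 for WT DIV3, where the largest share change, 6.0 points, was under the 10 required and belonged to Dpf2-201. Dpf2-201, annotated for nonsense-mediated decay, held 1.7% and 2.5% in WT DIV3, 7.0% and 5.4% in KO DIV1, and 5.9% and 10.3% in WT DIV1.

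Smarcd3 had the largest share change of the members between the wild-type groups. Smarcd3-208 starts 22399 bases upstream of Smarcd3-201 and has a coding sequence 87 bases shorter. It held 30.7% and 29.8% of the Smarcd3 counts in WT DIV3, 17.7% and 4.7% in KO DIV1, and 8.5% and 10.4% in WT DIV1. Smarcd3-201 held 59.2% and 61.5% in WT DIV3, 75.8% and 86.2% in KO DIV1, and 79.8% and 78.2% in WT DIV1. The wild-type groups were well apart and the KO libraries lay on either side of WT DIV1. The change of 20.8 points between WT DIV3 and WT DIV1 had an unadjusted Simes p of 0.0681 and an adjusted p of 1 (edgeR diffSpliceDGE), and the F form gave an adjusted p of 0.295.

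**Figure D4:**
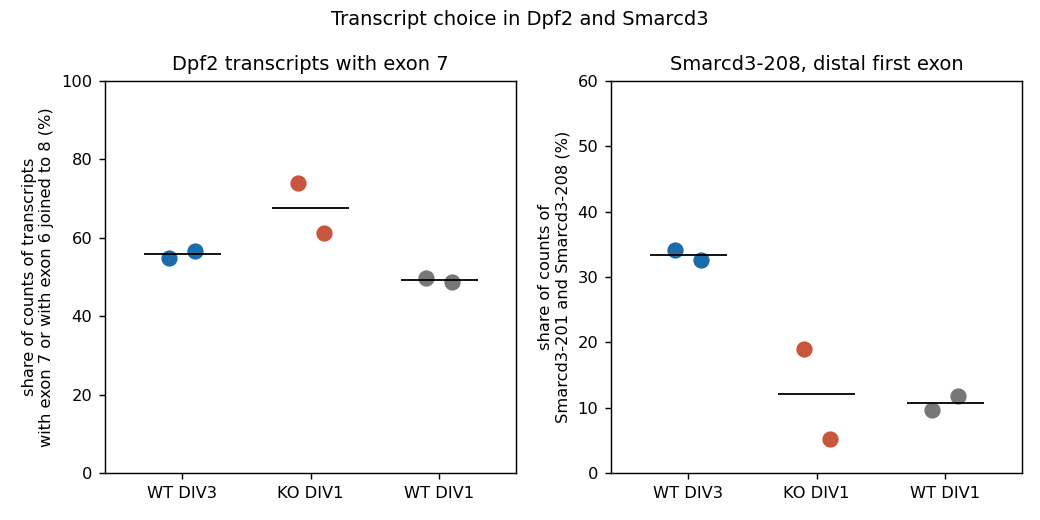
Share of counts (y axes, percent, from 0) of Dpf2 transcripts with exon 7 among those that include or skip it (left) and of Smarcd3-208 among Smarcd3-201 and Smarcd3-208 (right) in WT DIV3, KO DIV1 and WT DIV1; points are libraries and lines are means of 2. The count share of transcripts with exon 7 is highest in the KO libraries, at 74.0% and 61.2%. The Smarcd3-208 share is highest in WT DIV3, at 34.2% and 32.6%.

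For the other tested members the shares were as follows. Phf10 counts were divided between Phf10-201, with 48.2% to 60.7% in the 6 libraries, and Phf10-203, annotated for nonsense-mediated decay, with 39.2% to 51.7%; Phf10-203 held the larger share in the first WT DIV3 library. Actl6b-205 held 62.8% to 75.7% of the Actl6b counts, and Ss18-203 68.7% to 82.2% of the Ss18 counts. Dpf1-201 held 45.3% to 50.0% of the Dpf1 counts and Dpf3-207 66.3% to 81.0% of the Dpf3 counts. The largest change in a mean share among these genes was 8.3 points, for a Dpf3 transcript in WT DIV3.

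Among 21 other subunits of BAF, PBAF and ncBAF complexes, 2 were called higher and 3 lower in WT DIV3, against 19.8% and 16.4% of all tested genes, with a median log2 fold change of -0.19 (-0.02 over all genes). Smarca2, which encodes the ATPase BRM, had 408 CPM in WT DIV3 against 243 CPM in WT DIV1 (log2 fold change 0.75 ± 0.07, SE; adjusted p = 0.000566, edgeR), and Bcl7c also rose (0.62 ± 0.08). Smarca4, which encodes the alternative ATPase BRG1, had 520 CPM in WT DIV3 against 592 CPM in WT DIV1 and was not called. Bcl11b, a zinc-finger transcription factor found in neural BAF complexes, fell by 0.55 ± 0.10 on the log2 scale, Brd9, of the ncBAF form, by 0.32 ± 0.09, and Smarcd2 by 0.46 ± 0.13. Actb, the actin subunit and the most abundant of the list, was not called (-0.14 ± 0.14, SE). In KO DIV1 0 of the 21 were called, and 0 had an unadjusted p under 0.05, against 14.7% of all genes (edgeR).

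Of 17 genes of the regulatory circuit, 0 were called higher and 8 lower in WT DIV3, where 19.8% of all tested genes were called higher and 16.4% lower, and the median log2 fold change was -0.38. Rcor2, a REST corepressor, fell by 1.17 ± 0.09 on the log2 scale, to 64.1 CPM in WT DIV3 against 144 CPM in WT DIV1. Ctdsp1, a phosphatase that works with REST, fell by 0.76 ± 0.09 and Hdac1 by 0.57 ± 0.08. Rest itself fell by 0.32 ± 0.09 (adjusted p = 0.0265, edgeR quasi-likelihood test), and Ptbp1, the paralog of Ptbp2 that is known to give way to it in neurons, by 0.57 ± 0.09. The host genes Mir9-3hg and Mir124-2hg fell by 0.85 ± 0.12 and 0.47 ± 0.08. C130071C03Rik, the host of another miR-9 locus and the most abundant gene not called, had -0.43 ± 0.16 (adjusted p = 0.0788, edgeR). These are the long RNAs of the loci, and the mature microRNAs were not measured. In KO DIV1 0 of the 17 were called and 1 had an unadjusted p under 0.05, against 14.7% of all genes.

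**Figure D5:**
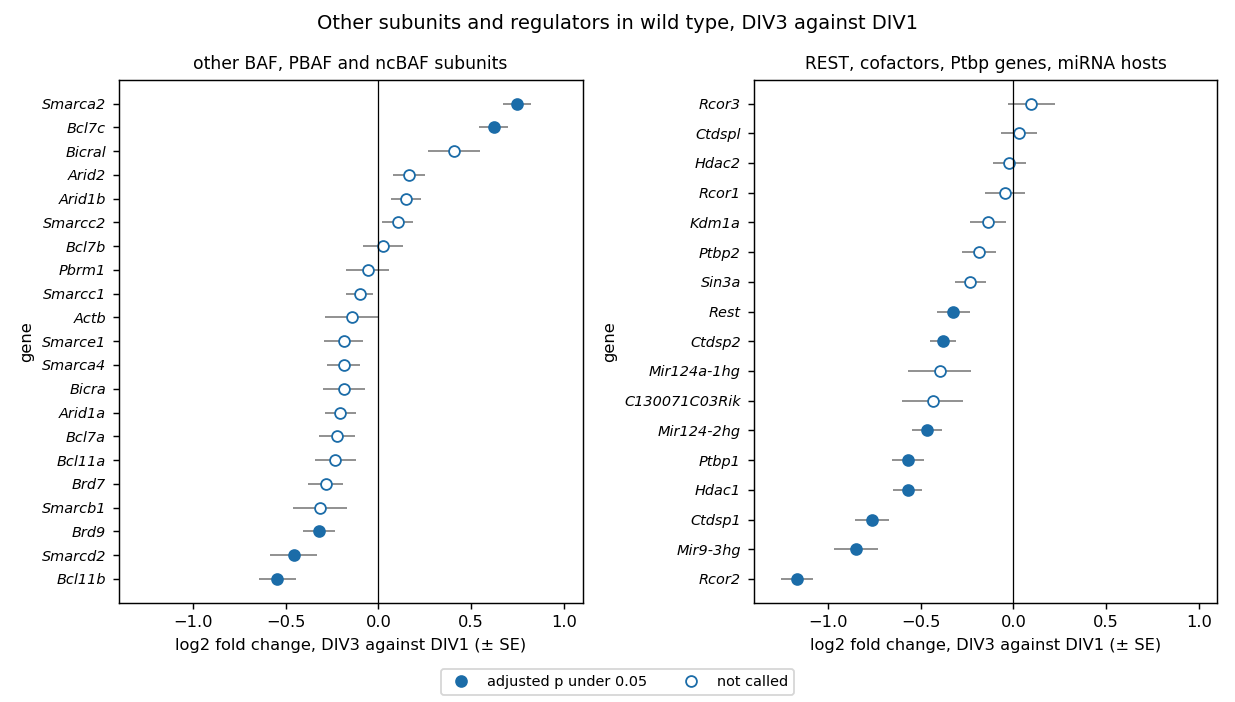
Log2 fold change (± SE) of 21 other subunits (left) and 17 regulators and microRNA host genes (right) in WT DIV3 against WT DIV1; filled points have an adjusted p under 0.05. The left panel has 2 filled points above 0 and 3 below, and the right panel 8 below 0.

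Of 10 genes described as targets or partners of neuronal BAF complexes, 5 were called higher and 2 lower in WT DIV3, against a background of 19.8% and 16.4%. Grin2b, an NMDA receptor subunit, rose by 1.44 ± 0.12 on the log2 scale, Ngef by 1.39 ± 0.13, Gap43, a growth-cone protein, by 1.13 ± 0.11 and Stmn2 by 1.07 ± 0.11. The 2 called lower were Arc, with a log2 fold change of -0.91 ± 0.16, and Cntn2, with -0.38 ± 0.10. Arc averaged 2.24 CPM in WT DIV3 against 4.24 CPM in WT DIV1, and Cntn2 601 CPM against 784 CPM. Nfasc, the most abundant gene of this list that was not called, had -0.13 ± 0.11. Of 11 Notch and Sonic hedgehog genes described as progenitor BAF targets, 2 were called higher and 6 lower, against the same background. Hey1 fell by 1.06 ± 0.10, Dll1 by 0.82 ± 0.09 and Smo by 0.73 ± 0.08. The 2 called higher were Ptch1 and Gli1. Ptch1 averaged 22.3 CPM in WT DIV3 against 14.0 CPM in WT DIV1 (log2 fold change 0.68 ± 0.10, SE). Gli1 averaged 1.99 CPM in WT DIV3 against 0.07 CPM in WT DIV1, where it rests on a handful of counts. Gli2, the most abundant of the list that was not called, had -0.31 ± 0.12. In KO DIV1 0 genes of either list were called (edgeR), and 3 of the 10 and 2 of the 11 had an unadjusted p under 0.05, against 14.7% of all genes.

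Markers of further cell types were also compared. Astrocyte markers summed to 197 and 178 CPM in WT DIV3 against 129 and 120 CPM in WT DIV1, with 4 of 4 tested called higher and S100b under 1 CPM in every library, and those of pericytes and fibroblasts to 38.1 and 37.7 CPM in WT DIV3 against 8.24 and 8.50 CPM in WT DIV1. Oligodendrocyte lineage markers summed to 35.9 and 30.2 CPM in WT DIV3 against 11.1 and 9.43 CPM in WT DIV1, with Sox10 under 1 CPM in every library. Microglial markers stayed at or under 7.21 CPM in all libraries, and of the endothelial markers Cldn5, Pecam1 and Cdh5 were under 1 CPM everywhere. Erythroid markers summed to 1.05 and 1.16 CPM in WT DIV3, 35.9 and 28.0 CPM in KO DIV1, and 22.4 and 11.1 CPM in WT DIV1. The part of these cells in the subunit changes was not tested.

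The genes whose level over the 6 libraries was most like that of Actl6a, by Pearson r of log2 CPM among 11062 genes averaging at least 5 CPM, were E2f2, Xrcc3 and AI506816, with r between 0.9993 and 0.9998. Those most like Actl6b were Fxyd6, Abhd12 and Gm44645, with r between 0.9963 and 0.9988. E2f2, a cell-cycle transcription factor, averaged 10.4 CPM in WT DIV3, 27.8 CPM in KO DIV1 and 23.4 CPM in WT DIV1. These correlations describe 6 libraries in 3 groups and carry no test.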

How the data were processed

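The authors deposited expected counts, estimates that can hold decimals, for each gene and transcript. STAR and RSEM with GRCm38 (mm10) are named in the submitters' processing notes. For their versions, the annotation release and the strand setting: not given in the sources used here. Per the labels' protocols, libraries were made from DNase-treated total RNA with a stranded kit. Names, lengths and coordinates came from GENCODE M21 by identifier without version, which matched 99.5% of genes and 99.4% of transcripts. Expected counts were rounded, filtered with filterByExpr (minimum count 10), scaled by TMM (factors 0.95 to 1.04) and tested in 1 fit of all 6 libraries (3 residual degrees of freedom) with the quasi-likelihood test of edgeR 4.0.16 in R 4.3.3, with Benjamini-Hochberg adjustment over all genes. Standard errors and 95% intervals come from that test. Transcript usage was tested with diffSpliceDGE on transcripts with at least 5% of their gene in 1 group. DESeq2 1.42.0 and limma 3.58.1 served as alternatives. Replicate libraries differed by more than sampling noise (chi-square of 18.7, 75.0 and 22.7 per gene in the WT DIV3, KO DIV1 and WT DIV1 pairs). The scripts were tested on simulated counts. The members and lists were chosen with earlier results of these data known. All 10 members are named, with at least the most abundant transcript of each. Not all of their 26 transcripts with a mean share of at least 5% in 1 group are named. Of each other list, the 4 called genes of lowest adjusted p were to be named, with the gene of highest level that was not called. Rest, Ptbp1, Smarca4, Smarcd2, Mir124-2hg, Ptch1, Arc and Cntn2 were added after their values were seen.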

Additional observations from a re-analysis of the deposited data

How the results depend on the processing

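Between WT DIV3 and WT DIV1, Actl6a, Dpf2, Ss18 and Ss18l1 were called under all 12 alternatives and Actl6b under 6. Of the members not called in the main fit, Dpf3 was called under 9, Smarcd3 under 6, Smarcd1 under 5, Dpf1 under 4 and Phf10 under 0. The number of genes called, 6088, ran from 2743 to 8698 when 1 library was left out: 2954 and 3408 without the first or second WT DIV3 library, 2959 and 2743 without the first or second WT DIV1 library, and 8698 and 8676 without a KO library; it was 8566 with the 4 wild-type libraries alone and 7529 with the length trend removed. The number of members called, 5, then ran from 4 to 9, and was 9 and 8 under those last 2 settings. Library totals in place of TMM shifted the median over all genes to -0.13 on the log2 scale, called 2563 genes higher and 3996 lower (TMM 3328 and 2760), and called 1 member higher and 6 lower. Between KO DIV1 and WT DIV1, 0 genes were called, but 198 with DESeq2, 1061 without a filter on low counts and 26 with the length trend removed; leaving out 1 library gave 0 to 5549. Members called were 0, but 1 without the filter (Dpf3), and 0 to 7 when 1 library was left out. Estimates that changed sign were Phf10 in WT DIV3 (-0.043 to 0.0008 when 1 library was left out, positive without the first WT DIV1 library) and, in KO DIV1, Actl6b (-0.045 with the length trend removed), Smarcd3 (-0.10 to 0.39 when 1 library was left out, negative without the first KO library) and Phf10 (-0.053 to 0.0046, positive without it); none was called with its sign changed, and the cause was not tested. With the union of exons as 1 length per gene, and likewise with a count-weighted mean transcript length chosen after seeing the data, the KO DIV1 minus WT DIV1 log2 ratio was -0.052 for Actl6b over Actl6a (-0.14 with transcript lengths) and -0.31 for Dpf1 over Dpf2 (-0.19), and the WT DIV3 minus WT DIV1 ratio of Dpf1 over Dpf2 was 0.82 (0.90). Members with changed transcript usage stayed at 0 in every alternative, including a length correction per transcript chosen after seeing the data; limma gave Dpf2 an adjusted p of 0.0436 in WT DIV3, with shares changed by under 10 points. Deviations of same-numbered libraries correlated at 0.68 between WT DIV3 and WT DIV1. The correlation was -0.06 between WT DIV3 and KO DIV1 and 0.10 between KO DIV1 and WT DIV1. What same-numbered libraries share is not stated in the labels, and the main fit did not pair them. With the number as a block, 4702 genes and 5 members were called between WT DIV3 and WT DIV1. Actl6b was then lost (adjusted p = 0.0594, edgeR) and Dpf3 gained (0.0479, edgeR). Between KO DIV1 and WT DIV1, the block gave 0 genes. With 2 libraries a group, a lone library left in a group is assumed to vary like the others. Dpf3 had the fewest counts, 84 to 273 per library, and an SE of 0.25.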
